A study of Mus musculus with 6 samples.

Results

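Glutathione and antioxidant defence genes were followed in the aortic root of klotho-deficient mice. The set holds 10 genes: Gclc, Gclm and Slc7a11 for making glutathione, Gsr, Txnrd1 and Nqo1 for reduction reactions, Hmox1 for heme breakdown, Sod2 and Sod3 for superoxide, and Gpx3 for peroxide. Members were found as the probe sets that the platform annotation assigns to exactly 1 gene symbol, that symbol being one of these. All 10 were on the array, with 20 probe sets, among 18193 genes measured by 34945 such probe sets. The set is named for the known functions of its genes.

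The samples were 3 klotho-deficient pools, homozygous for a mutant Klotho allele, and 3 pools homozygous for the wild-type allele. All were C57BL/6J albino mice aged 6.0 to 6.5 weeks, and no agent was given per the labels. Each array carried RNA from the dissected aortic roots of 3 mice, which hold valve leaflets, annulus and some ascending aortic wall, so 9 mice stood behind each genotype and p-values measure the spread between pools. In such bulk tissue, fewer cells of a type and less RNA per cell cannot be told apart. Klotho is a co-receptor for a hormone that controls phosphate, and the comparison asks which transcripts differ in the root when it is missing.

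Glutathione is a small thiol that cells use to remove peroxides and to detoxify reactive compounds. It is built from cysteine, which enters as cystine through the Slc7a11 transporter, by the glutamate-cysteine ligase pair of Gclc and Gclm, and its oxidised form is recycled by Gsr. The transcription factor NRF2, encoded by Nfe2l2 and held in check by Keap1, drives many of these genes through a DNA element called the antioxidant response element. In arteries the extracellular dismutase Sod3 is a main product of smooth muscle, and Hmox1 is induced by heme and oxidative stress.

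The RefSeq promoter table of build GRCm38.p6 held 8 promoters for 6 of the 10 genes, each from 250 bases before to 50 bases after a transcript start. They were searched on both strands, overlaps allowed, for the core of the antioxidant response element, TGACNNNGC. Only the Gclm promoter and 1 of the 3 Txnrd1 promoters held it. These 2 windows are shown, 5′ to 3′ on the gene's strand, as the only matches found. On the brightest probe sets, arrays separated by genotype for Txnrd1 and not for Gclm. Each is a match to the pattern, and whether it works as an element was not tested. Capitals mark the match, which runs on the opposite strand in both.
Gclm, chr3:122245403-122245451, plus strand: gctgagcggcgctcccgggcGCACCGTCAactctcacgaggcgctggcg
Txnrd1, chr10:82859094-82859142, plus strand: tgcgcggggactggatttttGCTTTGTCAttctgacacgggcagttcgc
The match lay 126 to 134 bases before the start in Gclm and 84 to 92 bases before it in Txnrd1. Of all 32851 promoters in the table, 4071 (12.4%) held a match, so a match by itself is common. No match was found in these windows for Nqo1, Slc7a11, Gpx3 and Sod2. Promoters of Gclc, Gsr, Hmox1 and Sod3 were not analysed here.

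Each gene is summarised here by its brightest probe set. Dimmer probe sets, given below, differed from it in overlap for Gclc, Txnrd1 and Gsr and in size for Gclm, Sod2 and Sod3. Of the 10 genes, Gclc, Hmox1, Nqo1 and Txnrd1 were higher on all 3 klotho-deficient arrays than on any wild-type array, by 1.28-fold to 1.67-fold. Sod2, Sod3, Gsr and Gclm overlapped between the genotypes and differed by less than 0.1 on the log2 scale. Gpx3 was lower on average with overlap, and Slc7a11 was below background on every array. None of the 10 passed limma's test over all genes (adjusted p from 0.67 to 0.996), and no gene of the whole array did (0 of 18193, 0%).

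A separation of the genotypes in which every klotho-deficient array lay above every wild-type array was found in 6.63% of all genes and in 6.95% of the 13322 genes with a mean above background. Here it was found in 4 of 10 genes, and the opposite separation, found in 6.84% of all genes, in 0 of 10. At an unadjusted p under 0.05, Gclc and Hmox1 were higher and 0 genes of the set were lower, against 3.25% and 3.16% of all genes. The difference was above 0 for 7 of the 10 genes and for 50.4% of all genes. The median difference was 0.04 over the 10 genes and 0.00 over all genes. With the mean of all probe sets of a gene in place of the brightest, these medians were 0.25 and 0.01. The genes were picked with earlier results of these arrays known, so these shares describe the set and do not test it.

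**Figure D1:**
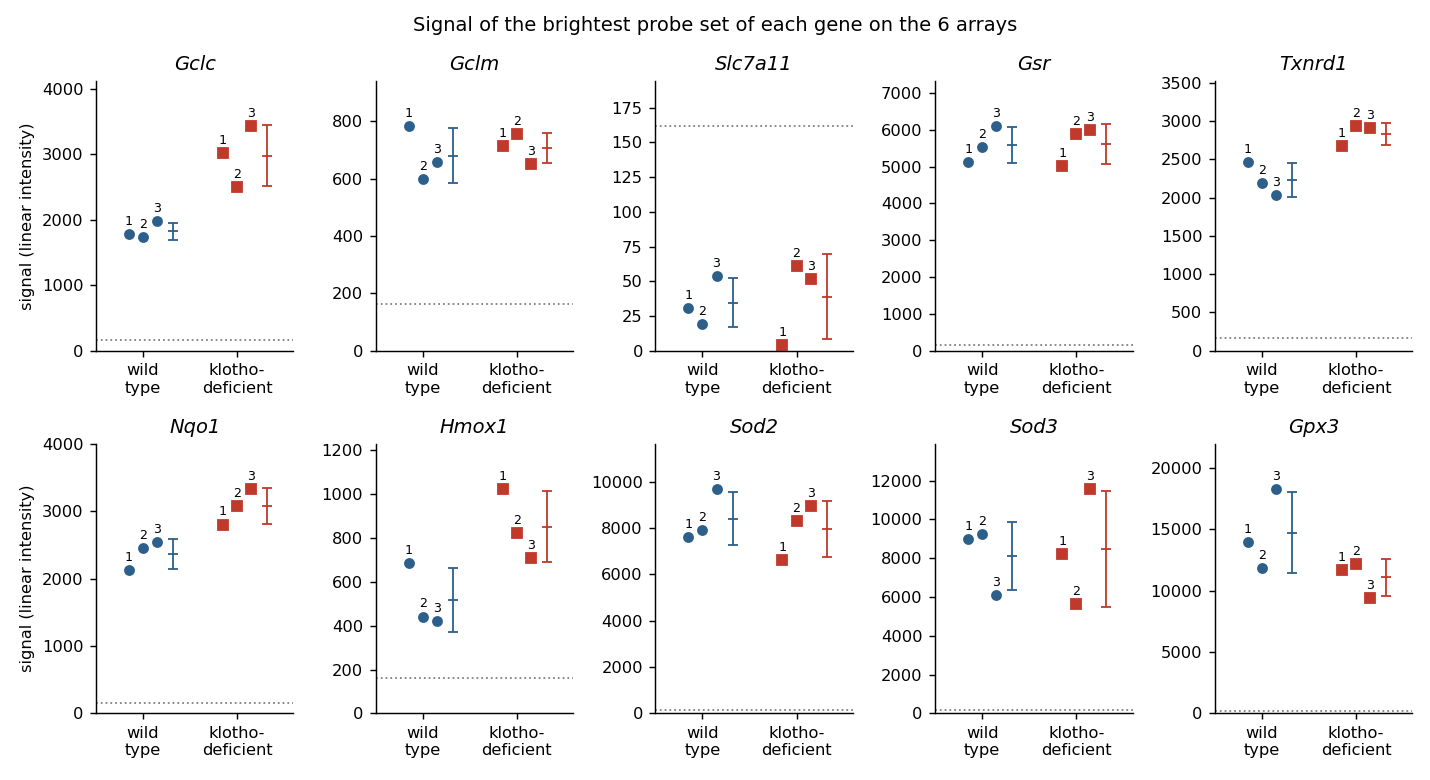
Signal (linear intensity, y axis from 0) of the brightest probe set of each of the 10 genes, with wild-type arrays as blue circles and klotho-deficient arrays as red squares, numbered by replicate; bars beside them are mean ± SD (n = 3), and the dotted line is the highest Bacillus control at 161.8. The groups do not overlap for Gclc, Txnrd1, Nqo1 and Hmox1, and Slc7a11 stays under the dotted line on all arrays.

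Gclc encodes the catalytic subunit of glutamate-cysteine ligase, the first and limiting enzyme of glutathione synthesis. Its brightest probe set read 3012.8, 2493.1 and 3431.5 on klotho-deficient replicates 1, 2 and 3 and 1776.3, 1730.4 and 1974.4 on the wild-type arrays. The lowest klotho-deficient array thus stood above the highest wild-type array, and the wild-type arrays lay close together. The means were 2979 ± 470 and 1827 ± 130 (SD, n = 3), a 1.62-fold difference, or 0.70 ± 0.19 (SE) on the log2 scale. Limma gave an unadjusted p of 0.0112 and an adjusted p of 0.67 over all genes, which ranks Gclc 298th of 18193 by p. The second Gclc probe set read 1801.3, 1396.0 and 2688.0 against 1461.2, 1461.7 and 1282.3, so klotho-deficient replicate 2 fell inside the wild-type range there. Its difference had the same direction and a smaller size, at 0.43 ± 0.29.

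Gclm encodes the modifier subunit that raises the affinity of the catalytic subunit for glutamate. It read 715.4, 756.3 and 650.3 on the klotho-deficient arrays and 784.2, 598.5 and 660.0 on the wild-type arrays. The 2 ranges lay on top of each other, and the difference was 0.06 ± 0.19 on the log2 scale, with a 95% interval of -0.39 to 0.52. The other Gclm probe set gave 0.24 ± 0.26, also with overlap.

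On the brightest probe sets, the log2 signal of Gclc minus that of Gclm within an array was 2.07, 1.72 and 2.40 in klotho-deficient roots and 1.18, 1.53 and 1.58 in wild type, so the genotypes did not overlap. The genotype difference in this quantity was 0.63. Between the dimmer probe sets of both genes it was 0.19 with overlap, so the contrast of the subunits rests on the brightest probe sets. The pair was chosen after its values were seen, and no test is given.

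Slc7a11, the cystine carrier that supplies cysteine for the ligase, was not well above background. Its brighter probe set read 4.2, 61.1 and 51.6 against 30.8, 19.3 and 54.0, and the other read 13.2, 101.8 and 9.2 against 11.6, 6.6 and 9.5. Every one of these values lies below the highest Bacillus control, so no fold is given. The 2 probe sets had differences of opposite sign.

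Among the reductases, Nqo1, a quinone reductase widely used as a readout of NRF2, read 2806.1, 3086.1 and 3338.4 in klotho-deficient roots and 2123.0, 2450.3 and 2542.3 in wild type. The arrays did not overlap, and the spread within each genotype was similar. The means were 3077 ± 266 and 2372 ± 220 (SD, n = 3), a 1.30-fold difference of 0.38 ± 0.18 in log2 signal that did not pass limma (adjusted p = 0.779 over all genes). Nqo1 has 1 probe set in the annotation, so no other probe set could be set beside it. When each array was centred on its median, klotho-deficient replicates 1 and 2 no longer lay above wild-type replicate 3, which leaves 3 separated genes.

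Txnrd1 encodes the cytosolic thioredoxin reductase, a selenoprotein that keeps thioredoxin reduced. It read 2672.8, 2938.0 and 2905.5 against 2467.7, 2191.1 and 2033.1, again without overlap. The means were 2839 ± 145 and 2231 ± 220 (SD, n = 3), 1.28-fold apart, with a difference of 0.35 ± 0.17 in log2 signal (limma adjusted p = 0.794 over all genes). The dimmer Txnrd1 probe sets had differences of 0.23 ± 0.26 and 0.24 ± 0.30, in the same direction and with overlapping arrays. Averaging the 3 probe sets ended the separation of Txnrd1.

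Gsr, which reduces oxidised glutathione, was nearly level. It read 5005.0, 5882.2 and 5990.5 against 5127.9, 5525.3 and 6105.2, with each genotype covering almost the same range. The difference was 0.01 ± 0.18 on the log2 scale, with a 95% interval of -0.42 to 0.44, and its sign turned under several settings. The dimmer Gsr probe set read 734.3, 829.0 and 763.9 against 706.7, 621.1 and 712.3, which did not overlap, with a difference of 0.19 ± 0.19. On the brightest probe sets, log2 Txnrd1 minus log2 Gsr within an array ran from -1.04 to -0.91 in klotho-deficient roots and from -1.59 to -1.06 in wild type. That genotype difference was 0.34, while the 2 dimmer Txnrd1 probe sets set against the dimmer Gsr probe set gave 0.03 and 0.05 with overlap. This pair, too, was chosen after its values were seen and has no test.

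Hmox1, the inducible heme oxygenase, which opens the heme ring and releases iron, carbon monoxide and biliverdin, had the largest difference of the 9 genes above background. It read 1024.1, 821.2 and 706.7 on klotho-deficient replicates 1, 2 and 3 and 687.2, 441.6 and 421.6 on wild-type replicates 1, 2 and 3. The groups are separated by a narrow gap, from 687.2 on wild-type replicate 1 to 706.7 on klotho-deficient replicate 3, while the other wild-type arrays are far lower. The means were 850.7 ± 161 and 516.8 ± 148 (SD, n = 3), a 1.67-fold difference of 0.74 ± 0.27 in log2 signal. Limma gave an unadjusted p of 0.0331 and an adjusted p of 0.753.

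Macrophages express Hmox1 strongly, so their markers were read beside it. Of 6 macrophage markers, 4 were higher and 2 lower, and all 6 were above background. Their summed signal was 46032.4 to 57033.0 in klotho-deficient and 41293.1 to 58572.1 in wild-type roots, so it overlapped. Of 5 measured neutrophil markers, 3 were higher and 2 lower. Their sum did not overlap, at 1245.8 to 1921.0 against 556.0 to 1094.2. S100a9 read 592.6, 886.8 and 1100.2 against 26.3, 24.2 and 307.9, and the separation of the sum rests on it. S100a8 did not overlap either, at 349.9 to 377.9 against 231.1 to 233.6, while Camp overlapped. The lower markers, Mpo and Elane, were below background on every array. The part of neutrophil content in the values of Hmox1, Gclc, Nqo1 and Txnrd1 was not tested.

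Sod2, the manganese dismutase of mitochondria, had 4 probe sets, all with differences below 0. The brightest read 6633.0, 8307.9 and 8949.1 in klotho-deficient roots and 7619.8, 7909.7 and 9701.7 in wild type. The genotypes overlapped, and the difference was -0.08 ± 0.21 (95% interval -0.58 to 0.42). The other 3 probe sets gave -0.06 ± 0.26, -0.13 ± 0.20 and -0.50 ± 0.29. The last of these read 1132.0, 2182.8 and 1669.8 against 2120.9, 2459.1 and 2260.0, where only klotho-deficient replicate 2 reached the wild-type range.

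Sod3, the copper and zinc dismutase bound to the extracellular matrix, varied widely within each genotype. Its brightest probe set read 8242.4, 5620.4 and 11588.8 against 8997.1, 9237.3 and 6125.9. Klotho-deficient replicate 2 and wild-type replicate 3 were the low arrays, and klotho-deficient replicate 3 was the highest. The means were 8484 ± 2990 and 8120 ± 1730 (SD, n = 3), and the difference was 0.03 ± 0.33 (95% interval -0.77 to 0.82). The dimmer probe set gave 0.42 ± 0.34, also with overlap. The 6 smooth muscle markers had a median difference of 0.00, with summed signals of 130924.9 to 182370.4 in klotho-deficient and 148828.5 to 163137.8 in wild-type roots.

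Gpx3, the glutathione peroxidase secreted into plasma and matrix, had the lowest difference of the genes above background. It read 11658.9, 12205.9 and 9382.0 in klotho-deficient roots and 13976.2, 11871.1 and 18313.2 in wild type. Wild-type replicate 2 lay inside the klotho-deficient range, and wild-type replicate 3 was well above the others. The means were 11080 ± 1500 and 14720 ± 3280 (SD, n = 3), and the difference was -0.40 ± 0.23 (limma adjusted p = 0.813 over all genes). Without wild-type replicate 3 it was -0.23. With klotho-deficient replicate 2 or wild-type replicate 2 left out, the klotho-deficient arrays all lay below the wild-type arrays, which then held for 12.4% and 10.8% of all genes.

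Wild-type replicate 3 also stood apart in other ways. Its ratio of 3′ to 5′ Gapdh control signal, a sign of RNA integrity, was 7.18 against 3.23 to 4.08 on the other arrays. Wild-type replicate 3 did not stand apart for the actin control, Actb, with a 3′ to 5′ value of 1.10 against 1.07 to 1.18 elsewhere. The summed signal of 6 mesothelial markers, genes of the layer that covers the outside of the root, was 49680.7 on it, while wild-type replicates 1 and 2 gave 34310.0 and 31499.9. In klotho-deficient roots this sum was 17279.3 to 31476.3, all 6 mesothelial markers had lower means on the log2 scale, and none was below background. The 6 endothelial markers summed to 36424.3 on wild-type replicate 3 and to 18684.8 to 22573.3 elsewhere, with 5 of 6 lower in klotho-deficient roots. The part of mesothelial and endothelial content in the Gpx3 values was not tested. Without wild-type replicate 3 the differences of Gclc, Hmox1, Nqo1 and Txnrd1 were 0.75, 0.61, 0.43 and 0.29. That these genes had no overlap then follows from their separation on all 6 arrays. With 3 arrays against 2, 11.9% of all genes had no overlap in the higher direction.

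Y-linked transcripts were unevenly spread over the pools. None of the 3 Y-linked genes measured exceeded background on klotho-deficient replicates 2 and 3, and all 3 exceeded it on the remaining 4 arrays. Both arrays without such signal are klotho-deficient, so on them a sex difference cannot be told apart from a genotype difference. With a covariate for those arrays, which leaves klotho-deficient replicate 1 to be set against the wild-type arrays, the differences were 1.02 for Hmox1, 0.72 for Gclc, 0.27 for Txnrd1 and 0.25 for Nqo1. The Klotho transcript itself did not separate the genotypes, at 138.3 to 217.4 against 166.7 to 202.1, close to background. It is therefore no check of the labels.

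Over all 45037 probe sets that are not array controls, limma called 0 (0%), and 5.36% had an unadjusted p under 0.05, as did 2 of the 20 probe sets of the set. Among the 20 probe sets of the set, 14 had differences above 0 and 6 below. In 5 of the 20, the brightest probe sets of Gclc, Txnrd1, Nqo1 and Hmox1 and the dimmer one of Gsr, every klotho-deficient array lay above every wild-type array, which held for 5.96% of all probe sets. Probe sets of the same gene share a transcript and are not separate evidence.

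**Figure D2:**
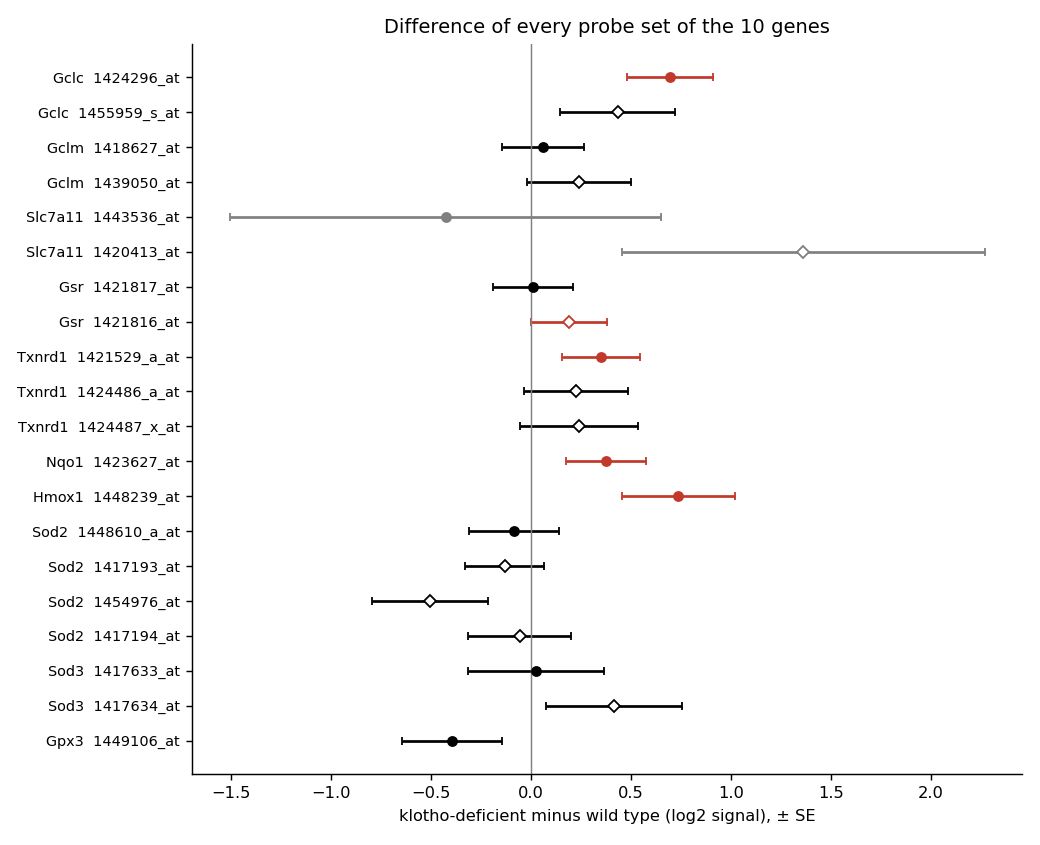
Difference of each of the 20 probe sets (klotho-deficient minus wild type in log2 signal, ± SE from limma over all probe sets); filled circles are the brightest probe set of a gene and open diamonds the others, red where the genotypes do not overlap and grey where every array is below background. Both Gclc and all 3 Txnrd1 probe sets lie above 0, all 4 Sod2 probe sets lie below 0, and the 2 dim Slc7a11 probe sets lie on opposite sides.

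Genes around this set were read from 10 pathway lists, which together held 132 genes, of which 118 had a probe set assigned to them alone. Of these, 53 were higher and 65 lower, the median difference was -0.02, and 0 passed limma over all genes. All klotho-deficient arrays lay above the wild-type arrays in 10 of the 118 genes (8.47%, against 6.63% of all genes) and below them in 5 (4.24%, against 6.84% of all genes). An unadjusted p under 0.05 was found for 4 higher genes and 1 lower gene, against 3.25% and 3.16% of all genes.

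In the list of glutathione synthesis, supply and breakdown, 7 of 12 measured genes were higher and 5 lower (median 0.10). Chac1, an enzyme that degrades glutathione, read 403.0, 436.5 and 666.0 against 308.7, 287.2 and 288.9, without overlap and with a difference of 0.73 ± 0.24. Cth, which makes cysteine from cystathionine, read 224.3, 176.4 and 105.4 against 56.7, 91.4 and 65.2. Wild type was below background for Cth on every array and klotho-deficient replicate 3 was too, so no fold is given. Gss, which completes glutathione, was level at -0.01 ± 0.27.

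The NRF2 regulators gave small differences. Nfe2l2 read 10453.1, 9250.4 and 11584.4 against 8508.8, 8906.3 and 10430.1, with overlap and a difference of 0.17 ± 0.19. Its dimmer probe set did not overlap, with means of 899.1 and 535.3 and a difference of 0.75 ± 0.27, so the size for this gene depends on the probe set. Keap1, the adaptor that marks NRF2 for degradation, differed by -0.27 ± 0.24 with overlap. Bach1, which represses Hmox1 by occupying NRF2 sites, differed by 0.18 ± 0.17 without overlap, and its dimmer probe set by 0.15 ± 0.32 with overlap. Cul3, the ligase scaffold that Keap1 joins, differed by 0.33 ± 0.21 without overlap, but its other 4 probe sets gave -0.01 to 0.15.

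Other NRF2 targets were split evenly, with 6 of 12 measured genes higher and 6 lower (median -0.0033). Aox1, an aldehyde oxidase, read 3048.8, 2907.7 and 2657.7 against 2070.7, 2187.2 and 1778.8. These did not overlap, and the difference was 0.52 ± 0.18 (limma unadjusted p = 0.0258, adjusted p = 0.735). Nqo2, a relative of Nqo1, measured 1962 ± 112 against 1592 ± 119 (SD, n = 3) without overlap on its brightest probe set, while its other probe sets gave 0.12 and -0.12.

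Of 21 glutathione S-transferases, which attach glutathione to reactive compounds, 14 were lower and 7 higher (median -0.14). Gsta4, which clears lipid aldehydes, measured 5693 ± 1050 against 9196 ± 3020 (SD, n = 3) without overlap, its highest array being wild-type replicate 3 at 12674.3. Gsta2 differed by -0.42 ± 0.26 with overlap. Of 10 peroxidases, dismutases and catalase, 7 were lower and 3 higher. Cat, which breaks down hydrogen peroxide, differed by -0.20 ± 0.16 without overlap, and Gpx8 of the endoplasmic reticulum by -0.36 ± 0.28 with overlap. The dimmer Cat probe set gave -0.18 ± 0.24 with overlap.

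In the thioredoxin, glutaredoxin and peroxiredoxin list 8 of 16 were higher and 8 lower. Txnrd2, the mitochondrial relative of Txnrd1, read 393.9, 349.1 and 490.2 against 564.7, 598.8 and 631.0, and so lay lower in klotho-deficient roots where Txnrd1 lay higher. Its difference was -0.55 ± 0.20 (limma unadjusted p = 0.0296, adjusted p = 0.753), and its other probe sets ran from -0.88 to -0.06. Glrx3, a cytosolic glutaredoxin with iron-sulfur clusters, differed by -0.64 ± 0.31 with overlap.

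Among 11 heme and iron genes, 5 were higher and 6 lower. Flvcr1, a heme exporter, measured 2448 ± 89.5 against 1797 ± 287 (SD, n = 3) without overlap. The dimmer Flvcr1 probe set gave 0.34 ± 0.31 with overlap. Cp, the ferroxidase ceruloplasmin, differed by 0.29 ± 0.16 without overlap, and 6 of its 7 other probe sets shared the direction. NADPH supply held 3 higher and 5 lower genes of 8, none without overlap, and its leading genes Nnt and Mthfd2 differed by -0.22 ± 0.20 and 0.40 ± 0.49. The other Nnt probe sets gave -0.16 ± 0.26 with overlap and, on a dim one with means of 87.3 and 206.8 that exceeded background on 3 arrays, -1.39 ± 0.43 without overlap.

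Sources of oxidants were also read. Xdh, which makes urate and superoxide as xanthine oxidase, read 2051.8, 2177.2 and 1900.1 against 1207.3, 1042.3 and 1345.2. The arrays were well apart, with a difference of 0.78 ± 0.18 and the smallest unadjusted p among the 118 genes (limma 0.00515, adjusted p = 0.67). Cybb, the catalytic unit of the phagocyte oxidase, read 1351.0, 2443.7 and 3037.9 against 1392.9, 1109.9 and 1378.2, where klotho-deficient replicate 1 stayed within the wild-type range. A dimmer Cybb probe set did not overlap, at 0.67 ± 0.27, and another overlapped, at 0.38 ± 0.31. Nox4, the oxidase of vascular cells, differed by -0.24 ± 0.31 with overlap. Of 11 ATF4 targets, a list that shares Chac1 and Sesn2 with others, 4 were higher and 7 lower, with Atf3 at 9362.4, 2714.4 and 10231.9 against 4007.1, 1541.3 and 3921.0.

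**Figure D3:**
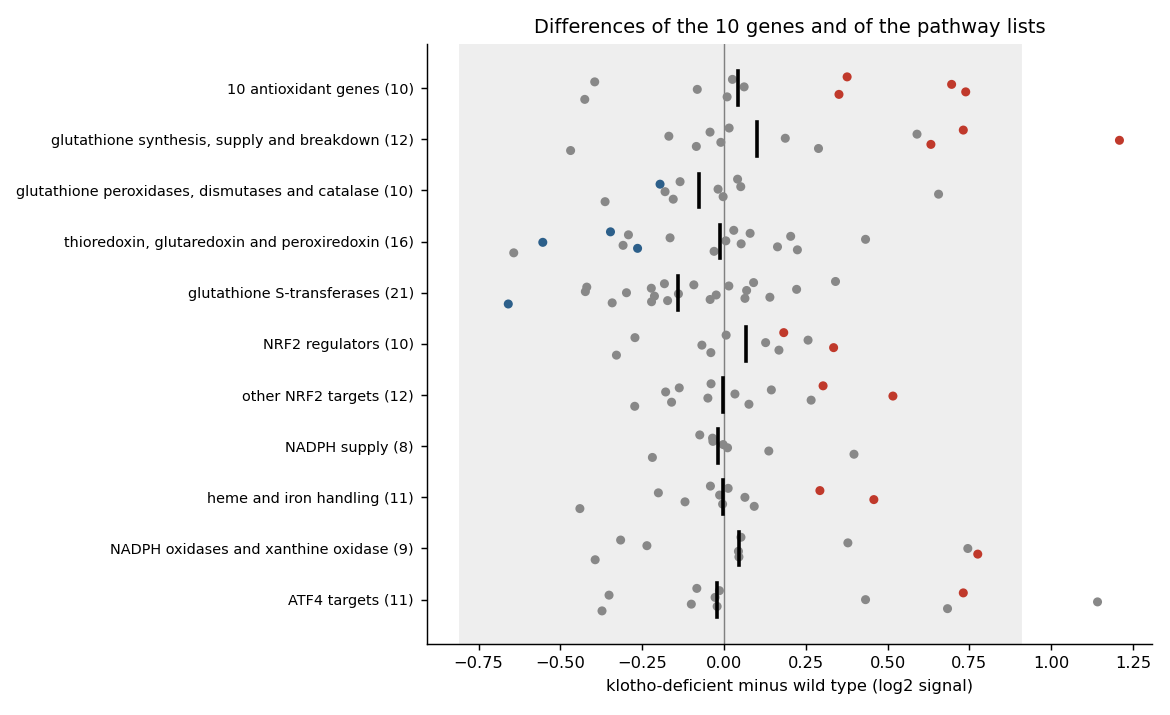
Difference of each gene (klotho-deficient minus wild type in log2 signal) for the 10 genes and for the 10 pathway lists, with the number measured in brackets; red and blue points are genes whose klotho-deficient arrays all lie above or all lie below the wild-type arrays, black bars are list medians, and grey shading spans the 5th to 95th percentile of all 18193 genes (-0.81 to 0.91). The medians lie between -0.14 and 0.10, and Gclc, Hmox1, Nqo1 and Txnrd1 are the red points of the top row.

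For each gene the profile most like its own over the 6 arrays was found as the smallest root mean square difference of log2 signals, each gene centred on its own mean. Txnrd1 was closest to Nqo2 (0.057), a gene of the NRF2 target list, but Bckdk (0.058) and Uri1 (0.0605), outside that list, were nearly as close. Gclc was closest to Lpin1 (0.09), Hmox1 to Ctage5 (0.10) and Nqo1 to Riok3 (0.05), with differences for those genes of 0.64, 0.70 and 0.41. Gsr was closest to Mthfd2l (0.03), Gclm to 2210406O10Rik (0.01), Sod2 to Selenos (0.03), Sod3 to Cspg4 (0.06) and Gpx3 to Dnaja1 (0.04). Among 13322 candidates a close profile over 6 arrays is easily found, and Slc7a11, being below background, has no profile to match.

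**Figure D4:**
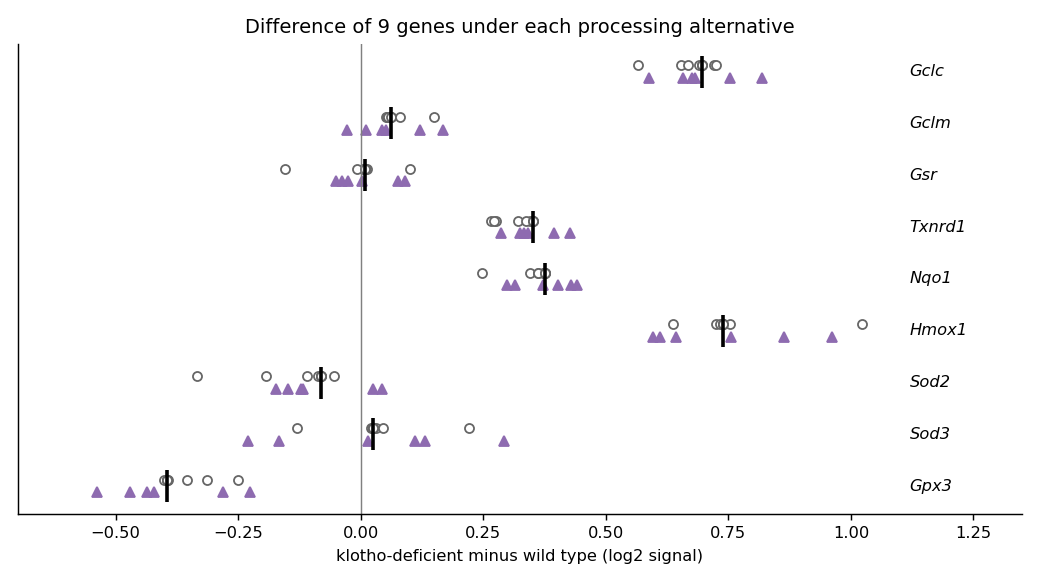
Difference of 9 genes (klotho-deficient minus wild type in log2 signal) as reported (black bars), under other processing (open circles) and with each array left out in turn (purple triangles); Slc7a11 is left out as below background. Gclc, Txnrd1, Nqo1 and Hmox1 stay above 0 and Gpx3 below 0 in all settings drawn, while Gclm, Gsr, Sod2 and Sod3 fall on both sides of 0.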

How the data were processed

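The members and lists were chosen with earlier results of these data known. The authors deposited linear intensity values for 45101 probe sets on 6 arrays, from 0.1 to 131884.9; the submitters' processing notes name RMA, and how a linear scale was reached is not stated in them. Arrays shared a trimmed mean of 1500 (2% trimmed at each end) but not a median (425.7 to 556.7). Values were log2-transformed with no pseudocount or further normalization. Background was the highest of 27 Bacillus control probe sets (161.8). Symbols came from the platform annotation, with 34741 gene identifiers found in RefSeq GRCm38.p6; 932 probe sets had several genes, 9160 none and 64 were controls. A gene was represented by its brightest probe set (by mean log2 value). limma 3.58.1 in R 4.3.3 (lmFit, eBayes, two-sided, Benjamini-Hochberg, threshold 0.05) was fitted over all genes, and over all probe sets for probe set values. A run of the fit on simulated data with larger shifts checked the code only. The power for differences of the sizes given here was not measured. Named pathway genes were the 2 of smallest p in each list with an array above background, and Nfe2l2, Keap1 and Bach1; the genes Gss, Nox4 and the Klotho transcript were named after their values were seen. Alternatives were quantile normalization, median centring, dim genes left out, an offset of 100, a trended and robust prior, array weights, a replicate block, a covariate for Y-linked transcripts, the mean of all probe sets and each array left out. Figures used matplotlib 3.10.9 in Python 3.11.15. The number of arrays limits the precision.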

Additional observations from a re-analysis of the deposited data

How the results depend on the processing

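Over 15 alternatives, none called any of the 10 genes. The median difference of the 10 genes ran from 0.02 with array weights to 0.25 with the mean of all probe sets. Over all genes the median was -0.0026 and 0.0072 in those settings. Gclc, Txnrd1, Nqo1, Hmox1 and Gpx3 kept their direction in all 15, over ranges of 0.57 to 0.82, 0.27 to 0.43, 0.25 to 0.44, 0.60 to 1.02 and -0.54 to -0.23. The 4 separated genes became 3 with median centring (without Nqo1) and with the mean of all probe sets (without Txnrd1), where 5.98% and 6.35% of all genes separated that way. They stayed 4 with each array left out, where 10.4% to 14.7% of all genes separated. With an array left out, the separation and direction of these 4 genes were fixed in advance by their separation on all 6 arrays. Counts of called genes over the array went from 0 to 1 with dim genes left out, an offset of 100 or array weights, and to 2 with a trended and robust prior; called probe sets went to 1, 1, 0 and 2. Leaving out an array gave 0 to 1 called genes, the 1 being the Y-linked gene Eif2s3y without klotho-deficient replicate 1. The klotho-deficient arrays then left, replicates 2 and 3, are those without Y-linked signal above background. The Gsr sign turned with array weights (-0.0074) and the Y-linked covariate (-0.15), and over left-out arrays ran from -0.051 to 0.091. Sod3 turned with array weights (-0.13) and ran from -0.23 to 0.29, Gclm from -0.027 to 0.17 and Sod2 from -0.17 to 0.044. Slc7a11, below background, turned with the offset (0.028) and the mean of all probe sets (0.47), and ran from -1.11 to 0.82. The cause of these turns was not tested. With the replicate block 0 genes were called. Deviations of same-numbered arrays were weakly correlated at most (0.165, -0.01 and 0.161 for replicates 1, 2 and 3). The numbers were not taken as pairs. Signals near background limit Slc7a11 and Cth.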
